A study of Mus musculus with 61 samples.

Results

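The genes described here are 10 imprinted genes known from endocrine tissue: Meg3, Rian, Dlk1, H19, Igf2, Nnat, Peg3, Peg10, Plagl1 and Snrpn. They were chosen by name, found by Ensembl identifier among the 46078 genes of the count table, and compared across all 12 conditions of the study. Of the 10, 8 passed the filter on low values and entered the tests. H19 and Peg10 did not.

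The study introduced doxycycline-inducible lentiviral vectors into organoids grown from pancreatic ducts of adult C57BL/6 mice. GFP marked Ngn3, LSSOrange marked Pdx1 and tdTomato marked MafA. Ngn3 (gene symbol Neurog3) is the transcription factor that starts endocrine development in the pancreas, whereas Pdx1 and MafA are factors of beta cells. After 8 days of doxycycline, pools of 50 cells of each colour combination were sorted and sequenced.

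One set of cultures received wild-type Ngn3 (WT) and the other received 6SA Ngn3, in which 6 serines are replaced by alanine. Each culture gave cells with Ngn3-Pdx1, Ngn3-MafA or Ngn3-Pdx1-MafA, and cells with Pdx1, MafA or Pdx1-MafA but no Ngn3 vector colour. The latter cells, sorted from the same infected and doxycycline-treated cultures, served as the comparison, so every group carried Pdx1, MafA or both. Uninfected cells and cells with Ngn3 alone were not analysed here. There were 17 samples with Ngn3 and 15 without, with 2 or 3 replicates in each condition. Replicates 1 and 2 came from organoids of passage 2, and replicate 3 from passage 5. Passage and replicate 3 therefore cannot be told apart. The factors were driven by a vector and not by their own promoters, and sorting by colour selects cells by vector and not by cell type.

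After technical repeats were summed, samples held 2579583 to 19461008 gene counts, with a median of 8490759. Levels are given in CPM (counts scaled to 1000000 a sample), corrected by TMM. A count of 3 corresponded to 0.136 to 1.01 CPM, depending on the sample. Neurog3 stood at 7.87 to 329 CPM in samples with Ngn3 and at 0 to 0.788 CPM in those without. Its median was 246 (6SA) and 167 CPM (WT) with 3 factors, and 38.1 to 62.6 CPM in the other Ngn3 groups. Pdx1 overlapped between groups, at 3.21 to 30.6 CPM in 6SA Ngn3-MafA, without its vector colour, and 11.2 to 31.7 CPM in WT Pdx1. Mafa stood at 0 to 1.45 CPM in 6SA Pdx1-MafA and 3.87 to 12.7 CPM in 6SA Ngn3-Pdx1-MafA. The part of these factor levels in differences between combinations was not tested. All 10 endocrine markers on the list were higher with Ngn3, their summed level being 1194 to 15364 CPM with Ngn3 and 22.9 to 108.5 CPM without. Of 10 duct markers 6 were lower, although their sum still reached 2429 to 21627 CPM with Ngn3, against 15847 to 65039 CPM without. In such pools fewer cells of a type and less RNA per cell cannot be told apart. A few pools held counts of another cell type. One of the pools of WT Ngn3-MafA replicate 1 held 2325 counts of the collagen gene Col1a2, one of 6SA Ngn3-Pdx1 replicate 1 held 579 counts of the endothelial gene Kdr, and one of WT Ngn3-Pdx1-MafA replicate 1 held 229 counts of Col1a2. Without the first and second of these pools, the number of the 10 genes that passed the test was the same in the comparison over all pairs and in each of the 3 factor combinations.

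Imprinted genes are expressed mainly from the copy inherited from a given parent, according to DNA methylation set in the egg or sperm. They lie in clusters that share a control region, and many act in growth, in the placenta, in the brain and in endocrine organs. Meg3 and Rian are non-coding RNAs made from the maternal chromosome at the Dlk1-Dio3 cluster, where Dlk1 is made from the paternal one. H19 and Igf2 form a pair of the same kind on another chromosome. Nnat, Peg3, Peg10, Plagl1 and Snrpn are expressed from the paternal copy. The counts used here do not separate the parental copies, so they give total level and say nothing of imprinting itself.

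Promoter sequences are shown for the non-coding RNAs of the Dlk1-Dio3 cluster and for the protein-coding genes Peg3 and Plagl1 as examples. Each is the 250 bases before a RefSeq start site on GRCm38.p6, read 5' to 3' on the strand of the gene. Capitals mark CAGATG or its reverse complement CATCTG, an E-box of the kind that basic helix-loop-helix factors such as Ngn3 bind, and TGCCGC or its reverse complement GCGGCA, the hexamer that the imprint-maintaining protein ZFP57 binds. The coordinates are chr12:109540746-109540995 for Meg3 (plus strand), chr12:109603695-109603944 for Rian (plus strand), chr7:6730420-6730669 for Peg3 (minus strand) and chr10:13090582-13090831 for Plagl1 (plus strand).
Meg3: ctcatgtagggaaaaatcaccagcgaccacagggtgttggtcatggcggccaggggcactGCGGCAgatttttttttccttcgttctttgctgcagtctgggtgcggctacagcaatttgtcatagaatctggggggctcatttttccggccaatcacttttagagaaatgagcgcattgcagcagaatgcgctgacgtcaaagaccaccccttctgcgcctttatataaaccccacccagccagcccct
Rian: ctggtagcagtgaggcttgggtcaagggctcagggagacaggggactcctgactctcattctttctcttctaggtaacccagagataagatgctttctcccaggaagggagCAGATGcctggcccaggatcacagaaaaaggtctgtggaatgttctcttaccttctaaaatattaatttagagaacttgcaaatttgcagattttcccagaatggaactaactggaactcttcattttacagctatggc
Peg3: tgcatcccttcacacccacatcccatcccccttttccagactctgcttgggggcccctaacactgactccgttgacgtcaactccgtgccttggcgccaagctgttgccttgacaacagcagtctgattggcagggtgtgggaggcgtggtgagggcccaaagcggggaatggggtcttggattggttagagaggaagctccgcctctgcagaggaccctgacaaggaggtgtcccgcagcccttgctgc
Plagl1: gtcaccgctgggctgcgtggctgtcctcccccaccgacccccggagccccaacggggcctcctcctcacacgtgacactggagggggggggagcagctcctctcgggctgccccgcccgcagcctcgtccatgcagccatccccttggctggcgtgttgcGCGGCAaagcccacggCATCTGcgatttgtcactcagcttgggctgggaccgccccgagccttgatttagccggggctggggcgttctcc

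The Meg3 window held 1 TGCCGC hexamer and 10 CpG, that of Rian 1 E-box and no CpG, and that of Plagl1 1 of each motif and 19 CpG. The Peg3 window held neither motif and 8 CpG. Across all promoters of the table, the median was 6 CpG, the E-box was found in 14.4% and the ZFP57 hexamer in 8.68%. The table gave 15 start sites for 8 of the 10 genes, and each motif was found in 2 of these 15. The Peg3 window runs back past the start of Usp29, which lies 164 bases from that of Peg3 on the opposite strand. The other start of Meg3, with no CpG, held neither motif, nor did any of the 4 starts each of Igf2 and Snrpn. A match is a string of letters, not a site shown to be bound.

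Over all 6 matched pairs of conditions, Peg3, Meg3, Snrpn and Rian were higher with Ngn3 and Igf2 and Plagl1 were lower, by edgeR's quasi-likelihood test with adjustment over all genes. Nnat and Dlk1 did not pass. Of all 24004 genes tested, 21.5% passed in this comparison, 11.1% higher and 10.5% lower. The median log2 fold change was 1.16 over the 8 imprinted genes tested and 0.07 over all genes.

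Peg3 (ENSMUSG00000002265, chr7:6703892-6730431, minus strand, GRCm38) encodes a large zinc finger protein made from the paternal copy. In WT cultures Peg3 stood at 552, 358 and 151 CPM in the 3 replicates with Ngn3-Pdx1, at 351, 308 and 95.0 CPM with Ngn3-MafA and at 356, 427 and 302 CPM with all 3 factors. In 6SA cultures it stood at 1076, 396 and 211 CPM with Ngn3-Pdx1, at 331, 450 and 53.0 CPM with Ngn3-MafA and at 259 and 463 CPM with all 3 factors. The 15 samples without Ngn3 spanned 22.4 to 104 CPM, with a median of 43.1 CPM. Of the 17 Ngn3 samples 15 lay above all of these, and the exceptions were the replicate 3 samples of Ngn3-MafA in both cultures. In the fit, Peg3 was higher with Ngn3 by a log2 fold change of 2.73 (SE 0.33, edgeR adjusted p = 4.96e-07), which is 6.65-fold. It was higher in all 14 pairs of samples with the same replicate number, a pattern that 2.96% of all genes showed. The call held in every alternative tried.

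The rise of Peg3 also passed the test in each factor combination. Its log2 fold change was 2.97 with Pdx1 (SE 0.61, edgeR adjusted p = 0.00734), 2.69 with MafA (SE 0.57, adjusted p = 0.00368) and 2.54 with Pdx1-MafA (SE 0.53, adjusted p = 0.0011). Every Ngn3-Pdx1 sample (151 to 1076 CPM) lay above every Pdx1 sample (28.2 to 88.6 CPM), as did 2.08% of all genes. Every sample with 3 factors (259 to 463 CPM) lay above every Pdx1-MafA sample (41.8 to 100.02 CPM), as did 5.66% of all genes. Peg3 was the only one of the 10 genes that passed in all 3 combinations. Without replicate 2, which leaves several conditions with 1 sample, these 3 calls were lost at fold changes of 2.52, 2.15 and 2.04 on the log2 scale (edgeR adjusted p = 0.622, 0.407 and 0.142).

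**Figure D1:**
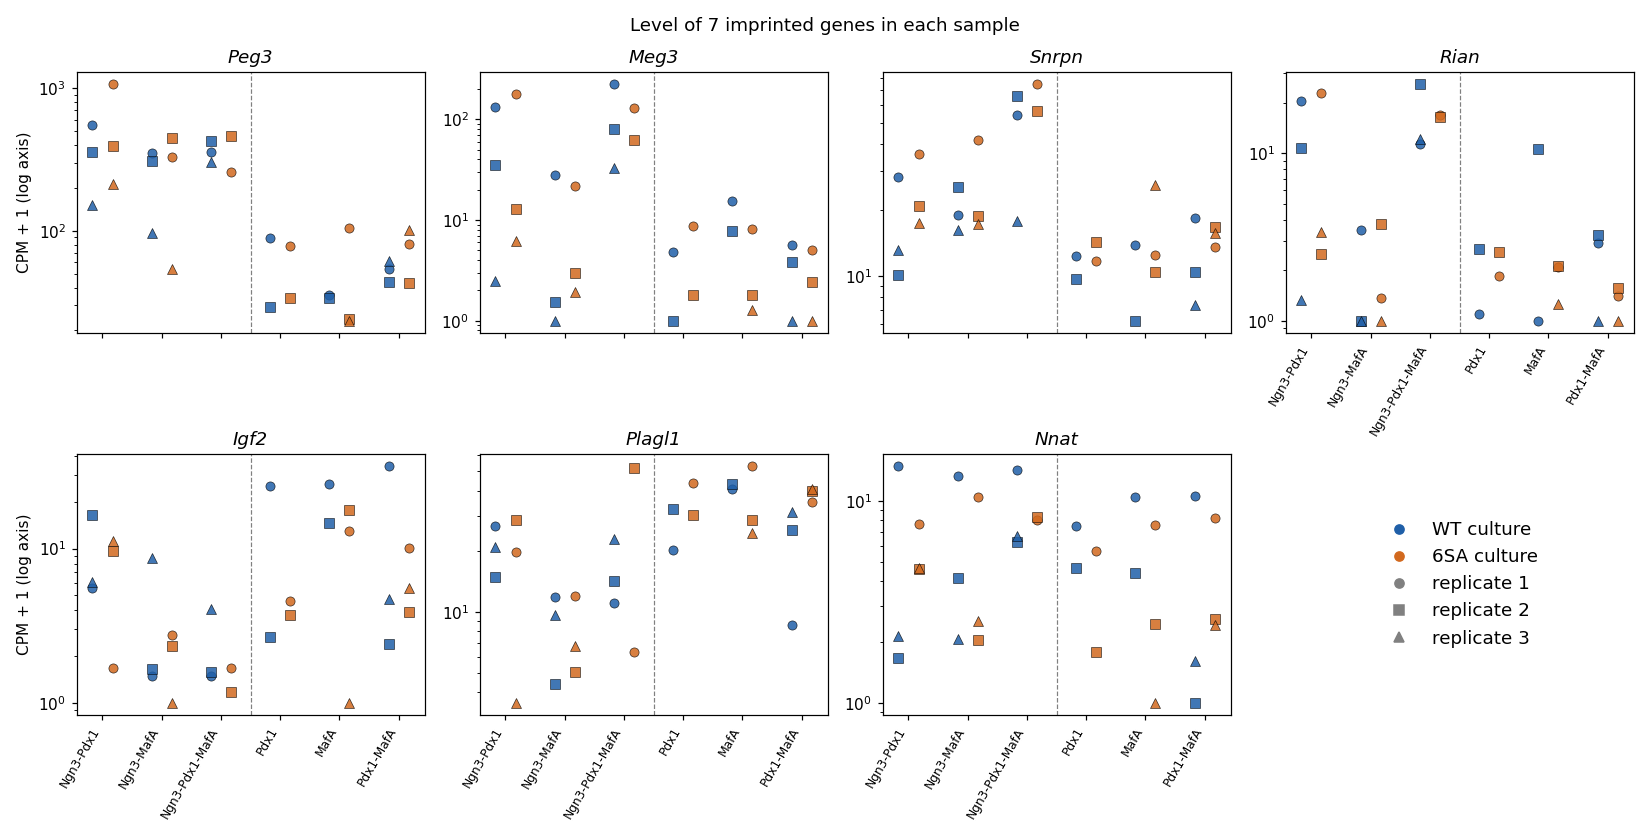
Level of 7 imprinted genes in each of the 32 samples, as CPM + 1 on a log axis, with a panel for each gene and the 6 factor combinations on the horizontal axis. Each point is a sample, its colour gives the culture (WT or 6SA Ngn3) and its shape the replicate, and the dashed line parts combinations with and without Ngn3. Peg3 lies at 53.0 to 1076 CPM with Ngn3 and at 22.4 to 104 CPM without, with 15 of 17 Ngn3 samples above the range without, against 3 of 17 for Nnat.

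Plagl1 (ENSMUSG00000019817, chr10:13060504-13131694, plus strand) encodes a zinc finger transcription factor that can halt the cell cycle, and its overexpression causes transient neonatal diabetes in humans. It moved in the opposite direction to Peg3. In WT cultures Plagl1 stood at 25.6, 13.8 and 20.0 CPM with Ngn3-Pdx1, at 10.8, 3.39 and 8.62 CPM with Ngn3-MafA and at 10.04, 13.2 and 21.9 CPM with all 3 factors. In 6SA cultures it stood at 18.9, 27.6 and 2.55 CPM with Ngn3-Pdx1, at 11.1, 4.05 and 5.81 CPM with Ngn3-MafA and at 5.36 and 50.9 CPM with all 3 factors. Without Ngn3 it spanned 7.58 to 52.0 CPM, with a median of 31.3 CPM. The sides overlapped, with 5 of 17 Ngn3 samples below all samples without Ngn3. Its level fell by 1.18 on the log2 scale over all 6 pairs (SE 0.30, edgeR adjusted p = 0.0051), which is 2.27-fold, in 11 of 14 same-numbered pairs.

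The fall of Plagl1 was clearest in cells with MafA. All 6 Ngn3-MafA samples (3.39 to 11.1 CPM) lay below all 5 MafA samples (23.7 to 52.0 CPM), as did 2.03% of all genes, and the fitted level fell by 2.36 on the log2 scale (95% interval -3.44 to -1.28, edgeR adjusted p = 0.00614), or 5.13-fold. With Pdx1 the change was -0.74 (adjusted p = 0.657) and with Pdx1-MafA -0.44 (adjusted p = 0.626). The difference between these combinations was tested, and did not pass for Plagl1. Without replicate 2 the call with MafA was lost at -2.10 on the log2 scale (edgeR adjusted p = 0.252).

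Meg3 (ENSMUSG00000021268, chr12:109541001-109571726, plus strand) is a long non-coding RNA annotated as a lincRNA, with a summed exon length of 18.1 kb. In WT cultures Meg3 stood at 225, 79.0 and 31.8 CPM with all 3 factors, at 131, 34.1 and 1.48 CPM with Ngn3-Pdx1 and at 26.9, 0.522 and 0 CPM with Ngn3-MafA. In 6SA cultures it stood at 127 and 61.5 CPM with all 3 factors, at 176, 11.9 and 5.25 CPM with Ngn3-Pdx1 and at 20.5, 1.97 and 0.917 CPM with Ngn3-MafA. The 15 samples without Ngn3 spanned 0 to 14.6 CPM, with a median of 2.79 CPM. Of the 17 Ngn3 samples 10 lay above all of these, including all 5 with 3 factors. Over all 6 pairs Meg3 was higher with Ngn3 by 3.48 on the log2 scale (SE 0.79, edgeR adjusted p = 0.00172), or 11.1-fold, and higher in 13 of 14 same-numbered pairs, which 6.12% of all genes matched or exceeded. Without replicate 2 the fold change was 3.45 but the call was lost (adjusted p = 0.0927).

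Meg3 also differed by replicate within a condition. Its replicate 3 value was below both others in all 8 conditions with 3 replicates, with and without Ngn3. Only 131 of the 24004 genes (0.546%) showed this pattern. Replicates 1 and 2, both of passage 2, differed as well. Meg3 was higher in replicate 1 than in replicate 2 in every condition, as at 176 and 11.9 CPM in 6SA Ngn3-Pdx1. The share of all genes that did so is not given. Among Ngn3 samples the summed endocrine markers were also lower in replicate 3, at 1194 to 2336 CPM (n = 5), than in replicates 1 and 2, at 3394 to 15364 CPM (n = 12). Peg3 was lowest in replicate 3 in all 5 Ngn3 conditions that had one, as were 3.6% of all genes. The part of passage in these levels was not tested, since replicate 3 alone was of passage 5.

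Separate pools of 1 sample show how far Meg3 and Peg3 vary between sorted groups of 50 cells of the same replicate, here as CPM of plain totals. In 6SA Ngn3-Pdx1 replicate 1 the 3 pools held 205, 246 and 145 CPM of Meg3, the last being the pool with Kdr counts, and 924, 1411 and 1371 CPM of Peg3. In WT Ngn3-Pdx1-MafA replicate 1 the 3 pools held 397, 204 and 222 CPM of Meg3 and 305, 244 and 502 CPM of Peg3. In 6SA Ngn3-MafA replicate 1 the 3 pools spanned 10.04 to 34.5 CPM of Meg3 and 148 to 514 CPM of Peg3. In Meg3 the pools differed by 1.69-fold in the first of these samples, 1.95-fold in the second and 3.43-fold in the third, and by 9.09-fold in 6SA Ngn3-MafA replicate 2, at 7 and 12 counts.

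Rian (ENSMUSG00000097451, chr12:109603940-109661716, plus strand) lies downstream of Meg3 on the same strand and is the host transcript of a cluster of small nucleolar RNAs. In WT cultures Rian stood at 10.3, 25.02 and 11.2 CPM with all 3 factors, at 19.6, 9.78 and 0.328 CPM with Ngn3-Pdx1 and at 2.5004, 0 and 0 CPM with Ngn3-MafA. In 6SA cultures it stood at 15.9 and 15.5 CPM with all 3 factors, at 21.8, 1.51 and 2.39 CPM with Ngn3-Pdx1 and at 0.367, 2.80 and 0 CPM with Ngn3-MafA. Samples without Ngn3 spanned 0 to 9.56 CPM, with a median of 0.84 CPM. As for Meg3, the samples with 3 factors were all above those without Ngn3. No Ngn3-MafA sample was above them in Rian. In Meg3, replicate 1 of Ngn3-MafA was above them in both cultures, at 26.9 CPM (WT) and 20.5 CPM (6SA). Over all 6 pairs Rian was higher by 2.23 on the log2 scale (SE 0.75, edgeR adjusted p = 0.0318), or 4.68-fold. Without replicate 1 this fell to 0.61 (adjusted p = 1), so the call over all pairs rests on that replicate.

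Meg3 and Rian varied together among Ngn3 samples. Pearson's r of log2(CPM + 1) was 0.886 and Spearman's rho 0.892 over 17 samples, against 0.230 and 0.165 over the 15 samples without Ngn3, where both were low. These samples share cultures and replicates, so the values are a description. The third gene of the cluster, Dlk1 (ENSMUSG00000040856, chr12:109452823-109463336), which encodes a membrane protein related to Notch ligands and is made from the paternal copy, gave 16 counts in 7 of 32 samples and at most 4 in any sample. Dlk1 was thus at or near the floor in every sample, those with the highest Meg3 included.

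By combination, the median levels of Meg3 and Rian were highest in cells with all 3 factors. The difference from Ngn3-Pdx1 cells did not pass, at 0.78 on the log2 scale for Meg3 (edgeR adjusted p = 0.857) and 0.75 for Rian (adjusted p = 0.862). With Pdx1-MafA, Meg3 was higher with Ngn3 by 5.54 on the log2 scale (SE 1.37, 95% interval 2.74 to 8.34, edgeR adjusted p = 0.00515), or 46.5-fold. Rian was higher by 4.48 (SE 1.30, adjusted p = 0.0163), or 22.3-fold. All 5 samples with 3 factors exceeded all 6 Pdx1-MafA samples, at 31.8 to 225 CPM against 0 to 4.67 CPM for Meg3 and at 10.3 to 25.02 CPM against 0 to 2.27 CPM for Rian. With Pdx1 alone the fold changes were 4.30 for Meg3 (95% interval 1.19 to 7.40, edgeR adjusted p = 0.192) and 3.24 for Rian (adjusted p = 0.349), neither past the threshold. With the replicate number as a block, Meg3 did pass with Pdx1, where 4.21% of all genes passed. Whether Meg3 passed with Pdx1 thus depended on the setting, since it did so in 5 of 12 alternatives. Among them were those without replicate 1 (6.67, edgeR adjusted p = 0.033) and without replicate 3 (4.81, adjusted p = 0.0236), while without replicate 2 it did not pass (3.84, adjusted p = 0.878). Without replicate 2 the calls with Pdx1-MafA were lost too, at 5.82 for Meg3 (adjusted p = 0.108) and 4.73 for Rian (adjusted p = 0.129).

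With MafA alone, neither RNA differed detectably. Meg3 changed by 0.60 on the log2 scale (95% interval -1.87 to 3.06, edgeR adjusted p = 0.987) and Rian by -1.05 (-3.51 to 1.42, adjusted p = 0.829). The Meg3 value turned to -1.58 without replicate 1 and the Rian value to 2.58 without replicate 2. The median level of Meg3 was 79.0 CPM with 3 factors, 23.0 CPM with Ngn3-Pdx1 and 1.44 CPM with Ngn3-MafA, and that of Rian 15.5, 6.08 and 0.183 CPM. All samples with 3 factors exceeded all Ngn3-MafA samples in both RNAs, as did 1.09% of all genes. The test of this difference between the Ngn3 groups gave 3.58 for Meg3 (SE 1.24, edgeR adjusted p = 0.112) and 3.99 for Rian (SE 1.25, adjusted p = 0.0778). The difference of the Ngn3 effect between Pdx1-MafA and MafA was 4.94 for Meg3 (95% interval 1.41 to 8.48, adjusted p = 0.317) and 5.52 for Rian (1.96 to 9.09, adjusted p = 0.259). None of these 4 values passed in the fit used here. In the 12 alternatives the first difference passed in 5 for each RNA and the second in 3 for each. With the replicate number as a block, both RNAs passed for the first difference, as did 8.49% of all genes. For the second difference Meg3 passed there and Rian did not, where 0.258% of all genes passed. Without replicate 1 all 4 passed, at 6.50 and 6.69 for the first difference (edgeR adjusted p = 7.89e-05 and 0.00589) and 7.51 and 8.90 for the second (adjusted p = 0.00442 and 0.0237).

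The summed endocrine markers spanned 1194 to 15364 CPM with Ngn3-MafA (median 5259 CPM), 1797 to 8416 CPM with Ngn3-Pdx1 (median 3874 CPM) and 2258 to 14624 CPM with all 3 factors (median 12510 CPM). The sample with the highest sum, 6SA Ngn3-MafA replicate 1, held 20.5 CPM of Meg3, and the one with the lowest, replicate 3 of the same condition, held 0.917 CPM. The part of the endocrine marker level in the Meg3 levels was not tested. Across the 17 Ngn3 samples the correlation of log2 levels with the marker sum was taken. Pearson's r was 0.791 for Snrpn, 0.727 for Peg3, 0.669 for Meg3, 0.575 for Nnat and 0.570 for Rian. It was 0.266 for Dlk1, at or near the floor, 0.162 for Plagl1 and -0.462 for Igf2. The samples share cultures and are not independent, so no test was made.

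Snrpn (ENSMUSG00000102252, chr7:59982495-60140219, minus strand) encodes SmN, a core protein of the spliceosome that is abundant in brain. In WT cultures it stood at 53.1, 64.8 and 16.8 CPM with all 3 factors, at 27.3, 9.11 and 12.1 CPM with Ngn3-Pdx1 and at 17.99, 24.4 and 15.1 CPM with Ngn3-MafA. In 6SA cultures it stood at 74.1 and 55.5 CPM with all 3 factors, at 34.8, 19.9 and 16.4 CPM with Ngn3-Pdx1 and at 40.8, 17.7 and 16.2 CPM with Ngn3-MafA. Samples without Ngn3 spanned 5.24 to 25.04 CPM, with a median of 11.5 CPM. The groups overlapped, with 7 of 17 Ngn3 samples above all those without Ngn3. Over all pairs Snrpn was higher by 1.28 on the log2 scale (SE 0.25, edgeR adjusted p = 0.000318), or 2.43-fold, in 13 of 14 same-numbered pairs. The increase was 2.10 with Pdx1-MafA (SE 0.41, adjusted p = 0.00074), or 4.28-fold, and did not pass with Pdx1 (0.85, adjusted p = 0.460) or MafA (0.89, adjusted p = 0.293). Without replicate 2 the call over all pairs was lost (1.18, adjusted p = 0.0665), as was that with Pdx1-MafA (2.00, adjusted p = 0.0812). Exons of Snrpn share 589 bases (27.3%) with the transcript Gm38393 on the same strand, so reads there may not have been counted for Snrpn.

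Igf2 (ENSMUSG00000048583, chr7:142650766-142666816, minus strand) encodes an insulin-like growth factor made from the paternal copy. It was the second gene that was lower with Ngn3. Igf2 stood at 0.486, 0.585 and 3.06 CPM with all 3 factors in WT cultures and at 0.678 and 0.174 CPM in 6SA cultures. With Pdx1-MafA alone it stood at 33.5, 1.39 and 3.73 CPM in WT cultures and at 9.07, 2.89 and 4.57 CPM in 6SA cultures. All 17 Ngn3 samples spanned 0 to 15.5 CPM (median 1.35 CPM) and the 15 without Ngn3 spanned 0 to 33.5 CPM (median 4.57 CPM), so the sides overlapped widely. The level fell by 2.07 on the log2 scale over all pairs (SE 0.60, edgeR adjusted p = 0.0128), or 4.19-fold, and fell by 3.44 with Pdx1-MafA (SE 1.15, adjusted p = 0.0377), or 10.8-fold. It was -2.94 with MafA (adjusted p = 0.111), and passed there in 5 of 12 alternatives, among them that without replicate 3 (-4.09, adjusted p = 0.0203). With Pdx1 no fall of Igf2 was detected, at 0.18 on the log2 scale (SE 1.04, edgeR adjusted p = 0.9999), and 0 of 12 alternatives passed. Its median there was 6.90 CPM with Ngn3-Pdx1 and 3.14 CPM with Pdx1. Without replicate 1 the change over all pairs was -0.91 (adjusted p = 0.557) and with Pdx1-MafA -2.34 (adjusted p = 0.255), and without replicate 2 they were -2.30 (adjusted p = 0.125) and -3.36 (adjusted p = 0.320). The call with Pdx1-MafA was also lost with all libraries (-2.93, edgeR adjusted p = 0.0644) and with the first technical repeat only (-3.06, adjusted p = 0.0884).

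H19 (ENSMUSG00000000031, chr7:142575529-142578143, minus strand), the maternal non-coding RNA beside Igf2, had no count in any of the 32 samples, so at most 0.136 to 1.01 CPM was compatible with a count of 0 in a sample. Peg10 (ENSMUSG00000092035, chr6:4747306-4760517, plus strand), a gene derived from a retrotransposon and needed in the placenta, gave 19 counts in 4 samples, all of them with Ngn3, and at most 12 counts in WT Ngn3-Pdx1-MafA replicate 1. Nnat (ENSMUSG00000067786, chr2:157560078-157562522, plus strand), a small membrane protein of the endoplasmic reticulum that is known in beta cells, spanned 0.674 to 13.9 CPM with Ngn3 (median 5.27 CPM) and 0 to 9.57 CPM without (median 3.39 CPM). Its log2 fold change over all pairs was 0.57 (95% interval -0.63 to 1.77, edgeR adjusted p = 0.652), and it did not pass over all pairs in any alternative. H19 and Peg10 were too low to be tested at this depth.

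**Figure D2:**
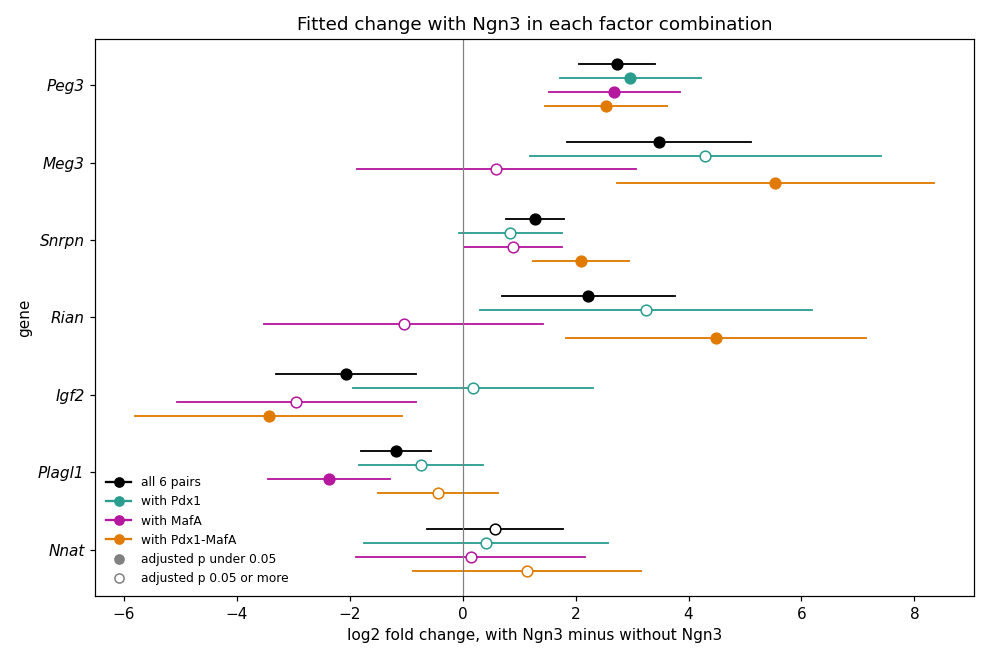
Fitted log2 fold change with Ngn3 against without Ngn3 for 7 imprinted genes, over all 6 pairs and in each factor combination over both cultures. Points are edgeR estimates, lines their 95% intervals, and filled points have an adjusted p under 0.05 over all genes. Peg3 is filled in all 4 comparisons, Meg3 and Rian over all pairs and with Pdx1-MafA.

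In all, 1 of the 8 imprinted genes tested passed with Pdx1 (1.49% of all genes), 2 with MafA (4.67%) and 5 with Pdx1-MafA (17.8%). Their median log2 fold change was 1.91, -0.45 and 1.62, against 0.07, 0.03 and 0.05 over all genes. These comparisons share no samples with each other, and the differences between them were tested as interactions. By edgeR none of the 8 passed for MafA against Pdx1 (0% of all genes), Pdx1-MafA against Pdx1 (0.0958%) or Pdx1-MafA against MafA (0.05%). At an unadjusted p under 0.05 the counts were 3, 2 and 4, and the share of all genes at that threshold is not given. By DESeq2 the counts were 0, 0 and 1, the last being Rian, where 0.104%, 0.925% and 1.45% of all genes passed. Between the Ngn3 groups themselves, none of the 8 passed by edgeR for 3 factors against Ngn3-MafA (2.72% of all genes), 3 factors against Ngn3-Pdx1 (1.88%) or Ngn3-Pdx1 against Ngn3-MafA (0.133%). There 4, 2 and 5 had an unadjusted p under 0.05. By DESeq2 3, 2 and 0 of the 8 passed, as did 8.12%, 5.71% and 1.19% of all genes. Among cells without Ngn3, none of the 8 passed between Pdx1, MafA and Pdx1-MafA by edgeR (0% of all genes), by an unadjusted p under 0.05 or by DESeq2.

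Within a single culture, where each group held 2 or 3 samples, fewer genes passed. With Pdx1-MafA in WT cultures Peg3 (2.80, edgeR adjusted p = 0.0229) and Snrpn (2.02, adjusted p = 0.0358) were higher, where 4.86% of all genes passed. In 6SA cultures Snrpn was higher (2.18, adjusted p = 0.0296), where 5.79% of all genes passed. Meg3 gave 5.46 (adjusted p = 0.0967) in WT and 5.61 (adjusted p = 0.0906) in 6SA cultures. DESeq2 called 3 and 4 of the 8 there, and 10.3% and 12.2% of all genes. Without replicate 2 no call was left in either culture, and the WT values were 2.55 for Peg3 (edgeR adjusted p = 0.481) and 1.56 for Snrpn (adjusted p = 0.664). The 6SA call of Snrpn was lost when any of the 3 replicates was left out (edgeR adjusted p = 0.0529 without replicate 3). Without replicate 1 or 2, 6SA Ngn3-Pdx1-MafA held 1 sample, and the spread came from other groups. Over the 12 alternatives the 6SA log2 fold change of Snrpn was 1.68 to 2.44. In the other 4 comparisons within a culture none passed by edgeR. These were Pdx1 in WT and in 6SA cultures and MafA in WT and in 6SA cultures. Of all genes 0.108%, 0.367%, 0.662% and 1.57% passed there by edgeR. Of the 8, 2, 1, 2 and 3 had an unadjusted p under 0.05. DESeq2 called 1, 1, 2 and 2 of the 8, and 0.904%, 1.68%, 2.79% and 4.69% of all genes.

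The 6SA form of Ngn3 gave no detectable difference from WT in any of the 8 genes, although the intervals were wide. None passed for 6SA against WT in Ngn3 cells, in cells without Ngn3 or in the interaction of culture and Ngn3 by edgeR (0% of all genes), none had an unadjusted p under 0.05 and none passed by DESeq2. In Ngn3 cells the log2 difference, 6SA minus WT, was 0.27 for Peg3 (95% interval -0.57 to 1.11), -0.09 for Meg3 (-2.01 to 1.83), 0.48 for Snrpn (-0.19 to 1.15) and -1.14 for Igf2 (-2.85 to 0.58). The sign of the Meg3 value turned without replicate 1 (0.46) or replicate 2 (0.04).

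Levels of different genes were compared as CPM per kb of summed exon length. In Ngn3 samples Peg3 was the highest at 27.1 ± 17.01 CPM per kb (SD, n = 17), followed by Snrpn at 14.1 ± 9.30, Nnat at 3.11 ± 2.40, Meg3 at 3.04 ± 3.83, Plagl1 at 1.91 ± 1.55, Igf2 at 0.634 ± 0.780 and Rian at 0.448 ± 0.474. Peg3 exceeded Snrpn in 15 of 17 samples and Snrpn exceeded Nnat in all 17, whereas Meg3 and Nnat, with nearly the same mean, and Igf2 and Rian did not differ beyond their spread. In samples without Ngn3 Snrpn was the highest at 5.68 ± 2.23 CPM per kb (SD, n = 15), with Plagl1 at 4.11 ± 1.41 and Peg3 at 4.11 ± 2.13 next and not separate from each other. Meg3 there had 0.202 and Rian 0.0783 CPM per kb.

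For each of the 6 genes that passed over all pairs, the genes most like it over the 32 samples were found by Pearson's r of log2(CPM + 1) among 14980 genes. Peg3 was closest to Vwa5b2 (0.936), Hepacam2 (0.933) and Dbpht2 (0.932), and Snrpn to Gnptg (0.922), Atp4a (0.920) and Sdf4 (0.918). Meg3 was closest to A330023F24Rik (0.917), Aatk (0.907) and Lyrm9 (0.901), and Rian to Gm37899 (0.913), Pde3a (0.856) and Xpnpep2 (0.855). Gm37899 is annotated just downstream of Rian on the same strand, within the Dlk1-Dio3 cluster. Plagl1 and Igf2 had looser neighbours. These were Nrg4 (0.748), Clmn (0.745) and Vil1 (0.722) for Plagl1, and Nvl (0.723) and Sik1 (0.717) for Igf2.

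Of 59 other imprinted genes, listed by cluster, 51 were tested, and 15 were higher and 3 lower with Ngn3 over all pairs by edgeR. Their median log2 fold change was 0.33. Over all genes tested 11.1% were higher and 10.5% lower, with a median of 0.07. The paternally expressed Zrsr1 rose by 2.28 on the log2 scale (edgeR adjusted p = 4.73e-07), Mest, a hydrolase-like gene of growth, by 2.93 (adjusted p = 4.43e-05), Rasgrf1, a Ras exchange factor, by 5.54 (adjusted p = 5.59e-05) and Sfmbt2, a Polycomb-group gene, by 3.14 (adjusted p = 0.000408). Ndn, of the Snrpn cluster, rose by 2.29 (adjusted p = 0.00389) and Peg13 by 1.66 (adjusted p = 0.000882). The median level of Ndn was 31.4 CPM with Ngn3 and 5.46 CPM without, and that of Peg13 40.7 and 16.4 CPM. Medians of Rasgrf1 were 8.34 and 0.145 CPM and those of Sfmbt2 3.71 and 0.324 CPM. Their fold changes thus rest on values near the floor without Ngn3. Ddc, which makes dopamine and serotonin (adjusted p = 8.68e-07), Usp29, head to head with Peg3 (adjusted p = 3.63e-05), and Zdbf2 (adjusted p = 0.000114) were higher too. They had medians of 4.86, 1.37 and 2.69 CPM with Ngn3 and at most 0.349, 0.112 and 0.451 CPM in any sample without, so no fold is given for them.

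The 3 that were lower were the potassium channel gene Kcnq1, which fell by 1.94 on the log2 scale (edgeR adjusted p = 2.21e-06), Slc22a18 of the same cluster, which fell by 1.32 (adjusted p = 0.000654), and Dio3, which inactivates thyroid hormone and fell by 4.92 (adjusted p = 0.000537). Dio3 lies at the far end of the cluster of Meg3 and Rian, with medians of 0 CPM with Ngn3 and 1.82 CPM without. Rtl1, of the same cluster, did not pass (2.45, adjusted p = 0.109), nor did Mirg. Genes of a cluster thus did not all move one way, since in the Dlk1-Dio3 cluster Meg3 and Rian were higher and Dio3 was lower, and in that of H19, Igf2 and Kcnq1, Cdkn1c, a cell cycle inhibitor, was higher (2.35, adjusted p = 0.00641) while Igf2, Kcnq1 and Slc22a18 were lower. Around Snrpn, Ndn passed and Ube3a, Snhg14 and Mkrn3 did not.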

How the data were processed

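RNA was measured in 61 libraries of 50-cell pools, which the labels place in 12 conditions. Reads were aligned by the authors with GSNAP to mm10 and assigned to Ensembl genes with HTSeq (0.5.3p3), giving deposited tables of raw counts per gene and library. Whether counting used strand is not given in the sources used here, so reads of overlapping antisense genes cannot be told apart. Rows that name no gene held 33.9 to 67.3% of a library's counts and were left out, as were 92 spike-in sequences. Symbols were found for 45143 of 46078 genes, and positions were taken from GENCODE M21 (GRCm38).

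Libraries held 241563 to 9736403 gene counts, with a median of 5589867. After the quality criteria of the study, 58 libraries with over 1000000 gene counts were kept and 3 were left out, and technical repeats were summed to 32 samples. The 24004 genes tested had a count in 5 or more libraries, and the variance of their log2(CPM + 1) exceeded 0.001. edgeR (4.0.16, R 4.3.3) was used with TMM scaling, 1 model of 12 conditions, the quasi-likelihood test and Benjamini-Hochberg adjustment over all genes, with a threshold of 0.05. SE and 95% intervals come from that fit. Floors of 3 counts cover counting error only. The labels number the replicates as biological but do not say whether they came from separate mice, so p-values measure the spread between these samples.

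Alternatives were DESeq2 (1.42.0), RLE scaling, no gene filter, filterByExpr, the replicate number as a block, all libraries, the first technical repeat, the newer edgeR dispersion setting, plain totals for levels and each replicate left out. Leaving out the pools with collagen or Kdr counts was added after seeing the data. The scripts were tested on simulated data. Named were all 10 genes, up to 12 other imprinted genes with the lowest adjusted p over all pairs, and for each of the 10 that passed, the 3 genes of mean CPM of at least 1 most correlated with it, of which 1 is not reported here. Cdkn1c, Rtl1, Mirg, Ube3a, Snhg14 and Mkrn3 were named after their values were seen. The genes and lists were chosen with earlier results of these data known. Promoters came from RefSeq (GRCm38.p6).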

Additional observations from a re-analysis of the deposited data

Results flagged for a closer look

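The 3 libraries left out for low depth, all of cells with 3 factors, held some levels above the highest of the 29 libraries without Ngn3, given in CPM of plain totals. Meg3 reached 107.6 CPM in 6SA Ngn3-Pdx1-MafA replicate 2, 22.0 CPM in 6SA Ngn3-Pdx1-MafA replicate 3 and 44.8 CPM in WT Ngn3-Pdx1-MafA replicate 2, against at most 21.1 CPM without Ngn3. These are 26, 9 and 28 counts. In the first and the last of these libraries, Peg3 reached 261 and 214 CPM, against at most 173 CPM, and Snrpn reached 41.4 and 31.97 CPM, against at most 17.5 CPM. The 6SA replicate 3 library did not exceed these limits, with 135 CPM of Peg3 and 2.45 CPM (1 count) of Snrpn. No condition held 4 samples, so outlying samples were not tested.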

How the results depend on the processing

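Over all 6 pairs, 6 of the imprinted genes passed under every alternative except the leave-outs, which gave 3 to 6. Over all genes 5168 passed, 2085 to 5074 with a replicate left out and 6620 with the replicate block. Under RLE scaling the median over all genes with Pdx1-MafA rose from 0.05 to 0.17.

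Numbers that changed in the combinations are given as genes of the 10. The share of all genes that passed moved too. By DESeq2 it was 3.91%, 8.1% and 21.7% with Pdx1, MafA and Pdx1-MafA, against 1.49%, 4.67% and 17.8% in the fit used. Without gene filter it was 4.08%, 6.66% and 14.9%, and with the newer dispersion setting 2.85%, 5.57% and 21.2%. With the first repeat it was 4.12% with MafA and 14.7% with Pdx1-MafA, and with all libraries 19.6% with Pdx1-MafA. With Pdx1, 1 passed, and 2 by DESeq2, 3 without gene filter, 2 with the newer dispersion setting and 0 to 2 in leave-outs. With MafA, 2 passed, and 3 by DESeq2, without gene filter, with the first repeat and with the newer setting, Igf2 being added, and 0 to 3 in leave-outs. With Pdx1-MafA, 5 passed, and 4 with all libraries and with the first repeat, Igf2 being lost, and 0 to 5 in leave-outs. For WT Pdx1, WT MafA, 6SA Pdx1 and 6SA MafA, 0 passed, and 1, 2, 1 and 2 by DESeq2, 2, 2, 2 and 3 without gene filter and 0 to 1 in leave-outs of each. For WT Pdx1-MafA, 2 passed, and 5 without gene filter, 4 with the newer setting, 1 with all libraries, 1 with the first repeat and 0 to 3 in leave-outs. For 6SA Pdx1-MafA, 1 passed, and 4 by DESeq2, 5 without gene filter, 4 with the newer setting, 0 with all libraries and 0 to 2 in leave-outs. Of the interactions, where 0 passed, MafA against Pdx1 and Pdx1-MafA against Pdx1 gave 1 each without gene filter, and Pdx1-MafA against MafA gave 1 by DESeq2, 2 without gene filter and 0 to 2 in leave-outs. Among Ngn3 groups, where 0 passed, 3 factors against Ngn3-Pdx1 gave 2 by DESeq2, 2 without gene filter, 1 by filterByExpr, 1 with the newer setting and 0 to 1 in leave-outs. There 3 factors against Ngn3-MafA gave 3 by DESeq2, 3 without gene filter, 3 with the newer setting, 1 with the first repeat and 0 to 3 in leave-outs, and Ngn3-Pdx1 against Ngn3-MafA gave 2 without gene filter, 1 with the newer setting and 0 to 1 in leave-outs. Without gene filter the share of all genes was 1.45%, 2.83%, 2% and 4.03% in WT Pdx1, WT MafA, 6SA Pdx1 and 6SA MafA. For Pdx1-MafA in WT and 6SA it was 6.92% and 7.9%, and in the 3 interactions 0.404%, 1.74% and 1.88%. Among Ngn3 groups, in the order given, it was 4.66%, 6.19% and 2.03%. With the newer setting it was 8.16% and 10.7% for Pdx1-MafA in WT and 6SA, and 3.67%, 6.87% and 0.421% among Ngn3 groups. The cause was not tested. The sign turned for Igf2 with Pdx1 from 0.18 to -0.045 with the newer setting, and in leave-outs for Igf2 with Pdx1 (-0.88 to 2.21), Meg3 with MafA (-1.58 to 0.94), Rian with MafA (-4.00 to 2.58) and Meg3 in 6SA against WT (-0.33 to 0.46).

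Same-numbered samples were compared over 5000 genes. Their deviations correlated by -0.387 to 0.746 in 14 pairs, 12 of them over 0.1. Over all conditions the median was 0.419 for same-numbered and -0.246 for different-numbered samples, a hint from the data that numbers share something. Since not every pair was over 0.1, and the labels tie no number to a shared mouse or day, the number was not used as a block above. With the replicate number as a block, 2 passed with Pdx1, 2, 1 and 4 in WT Pdx1, MafA and Pdx1-MafA, 2, 1 and 3 in 6SA Pdx1, MafA and Pdx1-MafA, 1 in the interaction of Pdx1-MafA against MafA, and 1, 3 and 1 for 3 factors against Ngn3-Pdx1, 3 factors against Ngn3-MafA and Ngn3-Pdx1 against Ngn3-MafA. Of all genes 4.21% then passed with Pdx1, 0.779%, 2.52% and 9.97% in the WT comparisons and 1.72%, 3.85% and 10.2% in the 6SA ones. In that interaction 0.258% passed, and between the Ngn3 groups 4.95%, 8.49% and 0.9%. The block gave 4.89 for Meg3 with Pdx1 (edgeR adjusted p = 4.75e-05), and for the interaction of Pdx1-MafA against MafA 5.50 (adjusted p = 0.00687). Levels near the floor of 3 counts, as for Rian, Igf2 and Dlk1, are limited by depth.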
